A study of Rattus norvegicus with 4 samples.

Results

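Wnt ligands and R-spondins are secreted signals, and 9 of their genes were followed here through the cells of rat skin and subcutaneous fascia: Wnt2, Wnt3, Wnt4, Wnt5a, Wnt10a, Wnt10b, Wnt11, Rspo1 and Rspo3. They were chosen by name from the 30560 genes of the count tables, and all 9 were found. All rats had the genotype WT, and each tissue gave 2 droplet libraries of dissociated cells (10x Genomics, 3′ end counting). The labels give no treatment, age, sex or number of animals per library, so p-values measure the spread between libraries, which may be technical. The study compared which cells make up each tissue, and the question followed here is which cell class holds the RNA of each ligand in each tissue. A UMI is a distinct RNA molecule counted once, and levels are in CPM, UMIs of the gene per 1000000 UMIs of a cell class in 1 library. The gene totals ranged from 1573 UMIs (Rspo3) to 7122 UMIs (Wnt11) over all kept cells. A count at the 3′ end depends on the gene's own RNA end, so levels are compared between cells and tissues within 1 gene and not between genes.

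A Wnt protein receives a lipid from Porcupine (Porcn), travels to the cell surface with Wntless (Wls), and binds a Frizzled receptor together with LRP5 or LRP6. This stabilises beta-catenin, which with TCF and LEF factors switches on target genes such as Axin2. Wnt5a and Wnt11 are the usual examples of ligands that can act without beta-catenin. R-spondins bind LGR receptors and hold back the ligases RNF43 and ZNRF3, which otherwise remove Frizzled receptors, so R-spondins amplify a Wnt signal but do not replace it. In skin, Wnt signals between the epidermis and the dermal papilla, a cluster of fibroblasts under each hair, drive hair follicle formation and hair growth.

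After filtering, the skin libraries (replicates 1 and 2, in this order throughout) kept 7015 and 14279 cells, and the fascia libraries kept 6602 and 6820. Skin replicate 2 stood apart, with a median of 2457 UMIs per cell where the others had 8859 to 12680, and 26.1% of its cells stayed unnamed. The largest unnamed cluster there, of 2232 cells, carried fibroblast and keratinocyte markers together. Library pairs shared 17 to 45 cell barcodes. Cells were named by cluster from marker genes, and each class is "-like" in that sense. In the fibroblast-like class the fibroblast gene Pdgfra was at 142 and 181 CPM (skin) and at 310 and 287 CPM (fascia). Skin papilla-like cells held Pdgfra at 263 and 129 CPM. Ptprc, the pan-leukocyte gene, was at 0.695 to 14.3 CPM in the fibroblast-like class. Because classes were named from marker genes, the marker levels describe a label and do not test it. Keratinocyte markers were also found outside their class. The summed keratinocyte marker list (14 genes) reached 451 to 11658 CPM in the 7 other classes of skin given such a sum. In those of fascia it reached 11.8 to 35.3 CPM. Whether this was free RNA was not tested. Lymphocyte-like cells, used as a reference class, held Wnt3 at 0 CPM in skin replicate 1 and 15.7 CPM in skin replicate 2, Wnt10a at 0 and 12.8 CPM, and Wnt4 at 0 and 11.4 CPM. Lower values of these 3 genes in other skin classes of replicate 2 are not read as a source, and where that RNA came from was not tested.

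The ligands were held by different cell classes. In skin, Wnt3, Wnt10a and Wnt10b were highest in keratinocyte-like cells, Wnt4, Wnt5a and Rspo3 in dermal papilla-like cells, and Rspo1 and Wnt11 in fibroblast-like cells. These are levels: by number of molecules, keratinocyte-like cells held 88.5% of the skin's 4800 UMIs of Wnt4, 65.4% of its 1958 UMIs of Wnt5a and 48.5% of its 773 UMIs of Wnt11. In fascia, Wnt2, Wnt10b, Wnt11, Wnt5a and Rspo3 were highest in fibroblast-like cells, and Rspo1 had its highest mean level in macrophage- or monocyte-like cells, where it overlapped fibroblast-like cells. In fascia replicate 2, 6 keratinocyte-like cells, too few to enter this order, gave 62 of the 197 UMIs of Rspo3 (163 CPM, from 3 of the cells). Skin held 20 UMIs of Wnt2, and fascia held 3 UMIs of Wnt3 and 11 of Wnt10a, too few to name a source there. Wnt4 had no clear source in fascia: its 142 UMIs were spread at 0.229 to 2.42 CPM over the 6 main classes. In fascia replicate 2, 6 dermal papilla-like cells, also too few to enter the order, held 6 of these UMIs (49.6 CPM, from 4 of the cells). The 6 keratinocyte-like cells there held 3 (7.91 CPM), and the 3 papilla-like cells of fascia replicate 1 held 0. These are orders of levels over classes with at least 50 cells in both libraries of a tissue, given as a description. The papilla-like sources could not be checked under all settings. With doublets kept, or cells classed by their own markers, papilla-like cells came neither first nor next for any member in skin. In the main clustering they held skin Rspo1 at 99.8 CPM. In these settings the class next after fibroblast-like cells held it at 0.877 and 1.36 CPM. So a papilla-like class seems absent from these orders, and they cannot decide whether its sources hold. In them, Wnt4 in skin was highest in keratinocyte-like cells, and Wnt5a and Rspo3 in fibroblast-like cells. With at least 200 genes per cell, skin Rspo1 was highest in papilla-like cells (96.83 against 93.35 CPM in fibroblast-like cells). That setting took the fibroblast-like cells of skin replicate 2 from 424 to 2791. By share of cells thinned to 2000 UMIs each, skin Wnt10a was highest in papilla-like cells and Wnt10b in lymphatic endothelial-like cells.

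**Figure D1:**
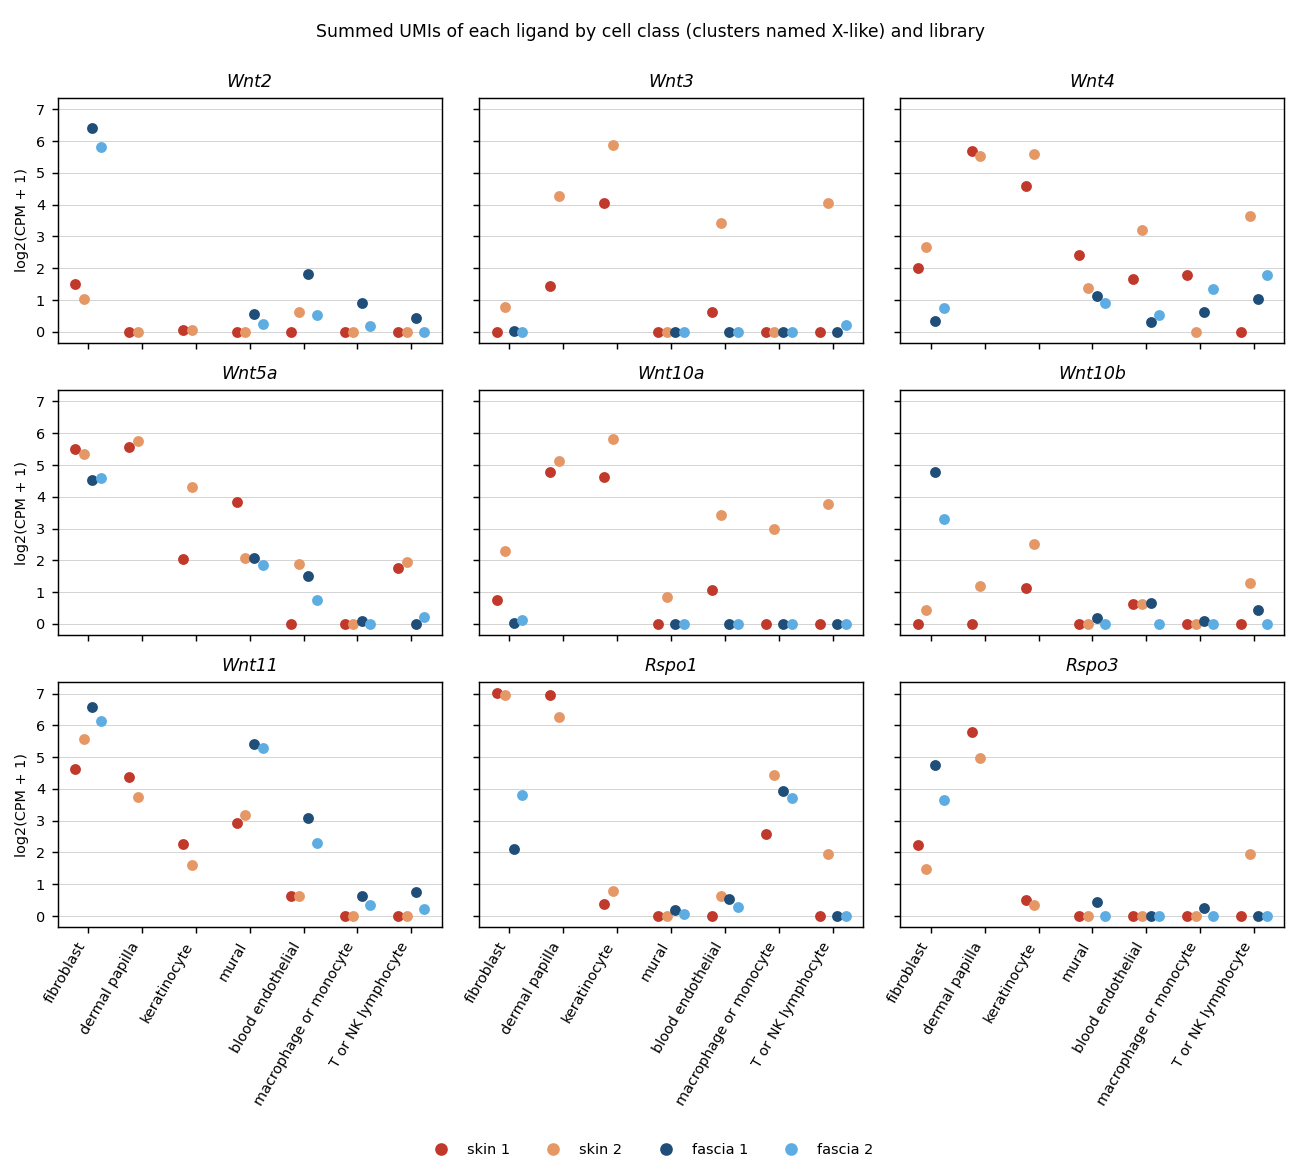
Level of each of the 9 genes, as log2(CPM + 1) on the vertical axis, in 7 cell classes on the horizontal axis, with 1 point for each library that has at least 20 cells of the class. Wnt2 in fascia fibroblast-like cells (83.9 and 54.8 CPM) and Rspo1 in skin fibroblast-like cells (128 and 123 CPM) stand above the other tissue, while Wnt3, Wnt4 and Wnt10a appear in skin classes.

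The epidermal ligands were held mainly by keratinocyte-like cells. Wnt3, a beta-catenin-type ligand, was at 15.7 and 57.9 CPM in keratinocyte-like cells of skin replicates 1 and 2, and these cells held 89.7% of the skin's 4842 UMIs. Wnt10a, a ligand whose loss disturbs teeth and hair, was at 23.5 and 55.6 CPM there, with 89.9% of 5268 UMIs. Both genes were higher in replicate 2 than in replicate 1, by more than the level seen in its lymphocyte-like cells. Low-content barcodes of skin, 341 and 981 in replicates 1 and 2, held Wnt3 at 8.2 and 38.8 CPM (3 and 25 UMIs). They held Wnt10a at 2.73 and 26.4 CPM (1 and 17 UMIs). The part of free RNA in the difference between the replicates was not tested. In fascia all 13422 kept cells together gave 1 and 2 UMIs of Wnt3 in replicates 1 and 2, and 7 and 4 UMIs of Wnt10a, so skin and fascia did not overlap for either gene.

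The 300 bases around the start of Wnt3 are shown because, of the 8 members with a promoter in the RefSeq table (build GRCr8, 250 bases before to 50 after the gene's start), this was the one that held a TCF/LEF core. The capitals mark that match, CTTTGTT, which begins at base 20 after the start on the gene's strand, at chr10:89179974-89180273 (+):
Wnt3: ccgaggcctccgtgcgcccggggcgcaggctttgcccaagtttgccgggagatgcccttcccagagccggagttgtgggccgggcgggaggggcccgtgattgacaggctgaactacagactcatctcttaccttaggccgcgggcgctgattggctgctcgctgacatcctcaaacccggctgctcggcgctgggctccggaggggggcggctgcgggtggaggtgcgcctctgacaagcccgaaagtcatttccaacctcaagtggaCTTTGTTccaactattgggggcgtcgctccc
The search took the letters CTTTG followed by AA or AT, or by TA or TT, on both strands, and 17.1% of all 33469 promoters of this length hold at least 1 of them. A match is a description of letters and not evidence of binding.

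Within the keratinocyte-like clusters, Wnt3 was uneven. The cluster led by Ly6d and Fgfbp1, which scored as basal epidermis, held Wnt3 at 83 and 141 CPM in skin replicates 1 and 2, and the cluster led by the hair shaft keratins Krt33a and Krt33b held 153 and 52.1 CPM. The suprabasal cluster with Loricrin and Krt10 was at 39.4 and 69.9 CPM and the cycling cluster with Cdc20 and Cenpf at 13.1 and 77.7 CPM, so in replicate 2 both were above the hair shaft cluster. The 2 largest bulge- or outer root sheath-like clusters were near the bottom, at 1.0 and 2.1 CPM (led by Krt24) and 0.3 and 1.3 CPM (with Cxcl14 and Lhx2). The 9 member genes were left out of the genes used for clustering, but clusters are defined by genes that move with them, so these are descriptions.

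Wnt10a and Wnt4 followed other patterns across the same clusters. Wnt10a was at 45.5 and 91.7 CPM in the infundibular cluster (Krt79, Cst6), the upper part of the follicle opening, and at 35.4 and 90.2 CPM in the basal epidermal cluster. In the cycling cluster it was at 62.4 and 82.7 CPM, in the hair shaft cluster at 57.9 and 30.6 CPM, and in the suprabasal cluster at 1.73 and 30.1 CPM. Wnt4 was found in all 11 clusters, at 4.25 and 27.6 CPM in the suprabasal cluster, 5.53 and 7.22 CPM in the cluster with Pthlh and Tnc and 57 and 94.9 CPM in the hair shaft cluster, with 45.3 and 60.8 CPM in the sebaceous gland cluster (Scd, Elovl3). Wnt10b, a ligand linked to hair growth and to the restraint of fat cell formation, was low in keratinocyte-like cells, at 1.21 and 4.69 CPM, and reached 7.13 and 8.4 CPM in the basal epidermal cluster. Wnt5a was concentrated in the 2 follicle clusters with Krt28, at 22.8 and 44.3 CPM (with Krt27 and Krt71) and 22.6 and 78.3 CPM (with Msx2), and in the hair shaft cluster, at 21.1 and 33.7 CPM. It was at 2.85 and 6.18 CPM in the basal epidermal cluster.

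**Figure D2:**
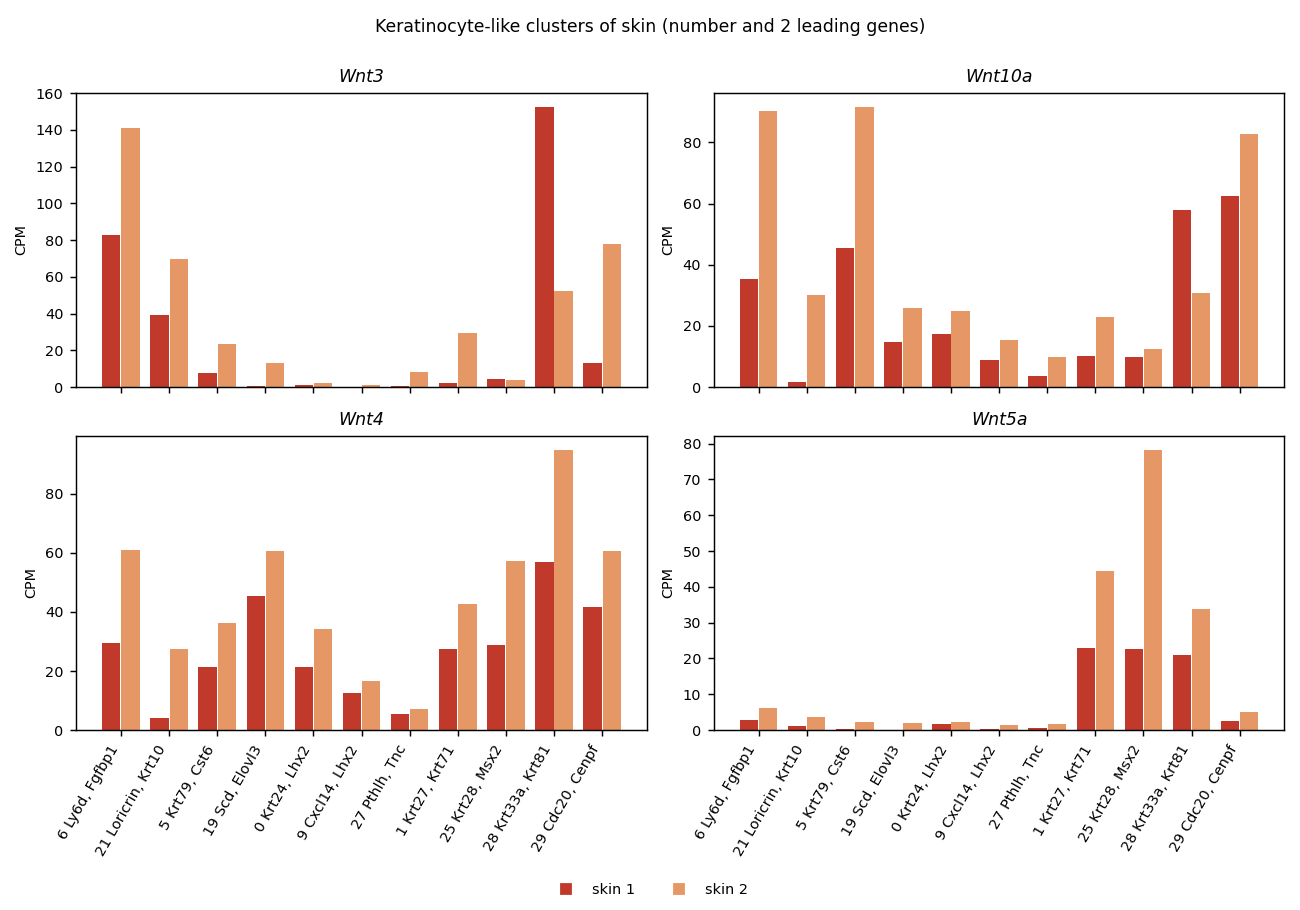
CPM of Wnt3, Wnt10a, Wnt4 and Wnt5a (vertical axes, from 0) in the 11 keratinocyte-like clusters (horizontal axis, cluster number with 2 leading or marker genes), with a bar for each skin library. Clusters 1, 25 and 28 are the 3 highest for Wnt5a in both libraries, while for Wnt3 cluster 28 is the highest in replicate 1 (153 CPM) and cluster 6 in replicate 2 (141 CPM).

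Dermal papilla-like cells (202 and 621 cells in skin replicates 1 and 2, with 3 and 6 cells in fascia) held most of the ligands when summed as a class. Whether single cells held several of them was not tested. Rspo3, an amplifier of Wnt signals, was at 54.5 and 30.1 CPM there against 3.71 and 1.77 CPM in the other skin fibroblasts, and the papilla-like cells held 66% of the skin's 253 UMIs. Wnt4 was at 51.1 and 45 CPM and Wnt10a at 26.7 and 33.9 CPM, and for both genes these values overlapped those of keratinocyte-like cells (22.8 and 47.7 CPM of Wnt4). Wnt5a was at 46 and 53.5 CPM. Rspo1 was at 123 and 76.4 CPM, and in this gene papilla-like and fibroblast-like cells (128 and 123 CPM) could not be ordered beyond the spread of the libraries. For Wnt5a the 2 classes were also close, with 44.3 and 39.9 CPM in fibroblast-like cells. Wnt2 had no UMI in the papilla-like cells of either library. The papilla markers were at 17 and 29.3 CPM (Corin) and 128 and 94.2 CPM (Hhip) in this class. The class was named from papilla markers, so these values describe the label and do not test it.

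The keratinocyte markers moved with skin replicate 2 in this class too, at 1010 and 11658 CPM summed. Wnt3 in papilla-like cells was at 1.70 and 18.2 CPM, beside 0 and 15.7 CPM in lymphocyte-like cells, and the part of free RNA in it was not tested. In replicate 1, papilla-like cells held Wnt4 at 51.1 CPM and Wnt10a at 26.7 CPM where lymphocyte-like cells held 0 UMIs of both. The low-content barcodes of replicate 1 held both genes at 2.73 CPM (1 UMI each). Those of replicate 2 held Wnt3 at 38.8 CPM, Wnt4 at 24.9 CPM and Wnt10a at 26.4 CPM. The part of free RNA in the Wnt4 and Wnt10a levels of papilla-like cells was not tested.

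Among fibroblast-like cells, Wnt2 and Wnt10b were called higher in fascia, and Rspo1, Wnt5a and Wnt4 higher in skin. Wnt11 and Rspo3 were found in both tissues and were not called. The fibroblast-like class counted 324 and 424 cells from the skin libraries, and 2770 and 742 from the fascia libraries. Different clusters held most of it in each tissue: in fascia those led by Pi16 and Mrgprg (1831 and 425 cells) and by Gdf10 and Sfrp2 (579 and 222 cells), and in skin the cluster led by Ccl19 and Igfbp2 (315 and 155 cells), with 268 cells of the Gdf10 cluster in skin replicate 2.

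Wnt2, a beta-catenin-type ligand, was at 1.85 and 1.06 CPM in skin fibroblast-like cells (8 and 3 UMIs) and at 83.9 and 54.8 CPM in fascia (3576 and 637 UMIs). Both fascia libraries were far above both skin libraries. The log2 change, fascia over skin, was 5.10 (SE 0.42, edgeR's quasi-likelihood test, adjusted p = 0.0157). At least 1 UMI was seen in 55.3% and 43.4% of the fascia fibroblast-like cells (median depth 16378 and 16229 UMIs) and in 0.317% and 0% of the fascia lymphocyte-like cells (8458 and 7056 UMIs). With each cell thinned to 2000 UMIs, 14.4% and 8.22% of the fascia fibroblast-like cells and 0.952% and 0.266% of the skin ones held Wnt2. Fibroblast-like cells held 98.7% of the fascia's 4270 UMIs of Wnt2.

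Wnt10b was at 0 and 0.353 CPM in skin fibroblast-like cells (0 and 1 UMI) and at 26.2 and 8.94 CPM in fascia (1118 and 104 UMIs). Fascia replicate 1 was the higher of its pair, and both fascia libraries were above both skin libraries. With 1 UMI in skin, the ratio of summed levels was 161 (95% counting interval 28.8 to 6362, counting error alone), and the fitted log2 change was 6.52 (SE 1.17, adjusted p = 0.0409 by edgeR). The whole tissues did not show this for Wnt10b: over all cells, skin gave 1.05 and 4.04 CPM, mostly from keratinocyte-like cells (88.3% of 393 UMIs), and fascia 12.8 and 1.37 CPM, so the tissues overlapped.

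Rspo3 was at 3.71 and 1.77 CPM in skin fibroblast-like cells and at 26.2 and 11.4 CPM in fascia. The tissues did not overlap, but the log2 change of 2.31 (SE 0.62) missed the threshold (adjusted p = 0.0859 by edgeR). It was called by DESeq2 (adjusted p = 0.0124). Wnt11 reached 23.9 and 47 CPM in the skin libraries and 94 and 68.7 CPM in the fascia libraries, again without overlap, and its log2 change of 0.88 (SE 0.29) was not called (adjusted p = 0.121 by edgeR). With dermal papilla-like cells counted among the skin fibroblasts, an alternative chosen after the data were seen, the Rspo3 difference was 0.02 and that of Wnt11 was 1.45 (adjusted p = 0.0186).

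The promoters of Wnt2, Rspo3 and Rspo1 are shown because Wnt2 was called higher and Rspo1 lower in fascia fibroblast-like cells, and Rspo3, not called, is the other R-spondin. Capitals would mark a TCF/LEF core, an AP-1 core (TGAGTCA or TGACTCA, in 4.63% of promoters) or a TATA box (TATAAA, in 14.2%), and none of the 3 windows holds one on either strand. The GC box GGGCGG, present in 33.1% of promoters on either strand, was found 1 time in Wnt2 and 1 time in Rspo3 and is not capitalised. They lie at chr4:47340235-47340534 (-), chr1:30112279-30112578 (+) and chr5:142536040-142536339 (+), GRCr8, RefSeq:
Wnt2: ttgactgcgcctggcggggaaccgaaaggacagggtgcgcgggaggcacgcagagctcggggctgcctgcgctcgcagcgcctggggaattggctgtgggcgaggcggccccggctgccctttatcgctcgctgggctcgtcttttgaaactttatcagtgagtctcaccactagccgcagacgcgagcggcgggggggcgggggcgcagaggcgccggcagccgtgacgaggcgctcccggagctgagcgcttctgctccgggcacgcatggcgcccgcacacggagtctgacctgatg
Rspo3: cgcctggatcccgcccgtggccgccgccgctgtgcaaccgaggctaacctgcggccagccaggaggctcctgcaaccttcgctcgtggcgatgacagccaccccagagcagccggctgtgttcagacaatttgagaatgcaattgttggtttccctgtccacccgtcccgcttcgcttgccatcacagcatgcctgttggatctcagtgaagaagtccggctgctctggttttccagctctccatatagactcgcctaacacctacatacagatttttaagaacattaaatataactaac
Rspo1: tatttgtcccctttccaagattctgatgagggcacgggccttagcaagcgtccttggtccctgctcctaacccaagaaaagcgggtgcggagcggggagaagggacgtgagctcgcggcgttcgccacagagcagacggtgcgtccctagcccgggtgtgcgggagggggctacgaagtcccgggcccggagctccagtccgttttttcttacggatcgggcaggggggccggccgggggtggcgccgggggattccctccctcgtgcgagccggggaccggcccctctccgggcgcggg
The G and C content was 70% in Wnt2, 55.3% in Rspo3 and 68.7% in Rspo1, against a median of 51.7% over all promoters.

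Rspo1 went the other way. It was at 128 and 123 CPM in skin fibroblast-like cells (551 and 349 UMIs) and at 3.31 and 13.2 CPM in those of fascia (141 and 153 UMIs), with a log2 change of -4.36 (SE 0.75, adjusted p = 0.0381 by edgeR). Every skin value was above every fascia value. Over the whole class, Wnt5a fell from 44.3 and 39.9 CPM in the skin libraries to 22.2 and 22.9 CPM in the fascia libraries. The change on the log2 scale was -1.29 (SE 0.22, adjusted p = 0.039 by edgeR). Within the Gdf10 and Sfrp2 cluster, Wnt5a went the other way, as given below. Wnt4 was low throughout, at 3.01 and 5.30 CPM in the skin libraries and 0.258 and 0.688 CPM in the fascia libraries (log2 change -3.61, SE 0.69, adjusted p = 0.0442 by edgeR). The Wnt4 values of skin replicate 2 lie below that library's lymphocyte-like cells, and the summed keratinocyte list in fibroblast-like cells came to 451 and 1885 CPM (skin) against 11.8 and 18.4 CPM (fascia). Its part in the Wnt4 result was not tested.

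In all, 5 of the 7 tested members were called in fibroblast-like cells, 2 higher and 3 lower in fascia, where 10.1% of the 12408 genes tested were called, 3.07% higher and 7.02% lower. Wnt3 and Wnt10a were too low for the test. A direction held by 2 libraries against 2 cannot reach a p under 0.33 in a two-sided exact permutation test, so the calls rest on a spread shared across genes. Without fascia replicate 1, or without fascia replicate 2, no gene at all was called in this class (1696 and 2201 genes had an unadjusted p under 0.05), and without skin replicate 1, 1 member was called. Counting the mixed cluster of skin replicate 2 as fibroblasts, an alternative chosen after the data were seen, left 0 members called, with Wnt2 at 5.68 (adjusted p = 0.0536) and Rspo1 at -3.94 (adjusted p = 0.0942), and so did keeping cells with at least 200 genes (Wnt2 at 5.70, adjusted p = 0.0506). In skin replicate 2 the fibroblast-like class grew from 424 cells to 2656 with the mixed cluster counted and to 2791 with at least 200 genes. The sign of all 5 members was the same in each of the fits of this paragraph.

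**Figure D3:**
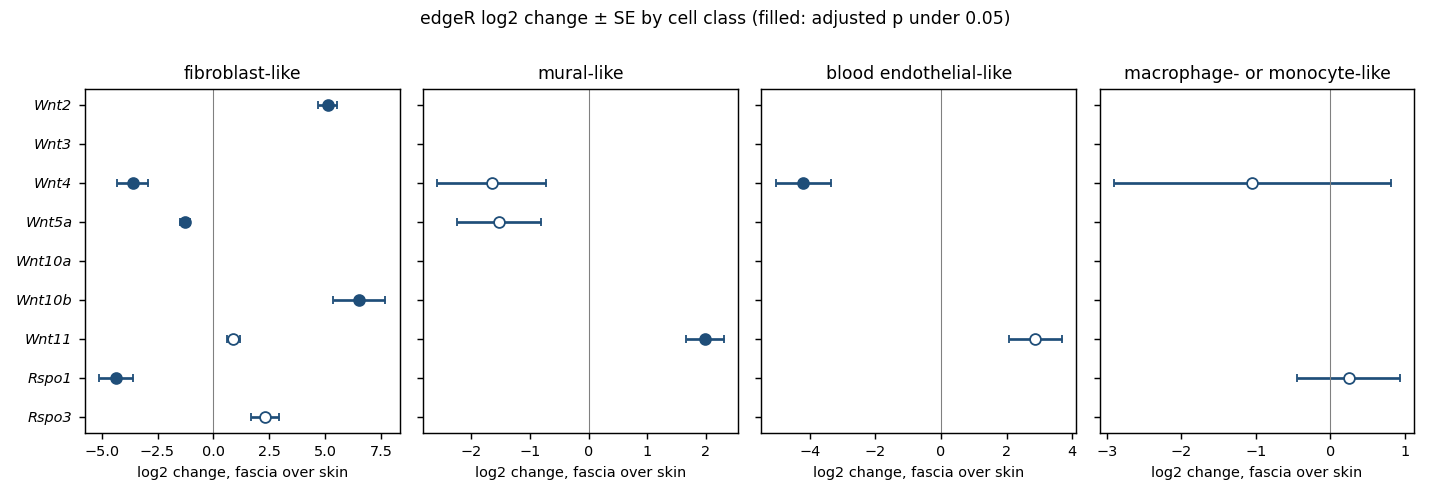
Log2 change of each tested member, fascia over skin (horizontal axis, scale differs by panel), with SE bars, in fibroblast-, mural-, blood endothelial- and macrophage- or monocyte-like cells. Filled points have an adjusted p under 0.05 by edgeR, such as Wnt2 at 5.10 and Rspo1 at -4.36 in fibroblast-like cells, and open points do not.

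Within the fascia, the fibroblast clusters split by ligand. The Pi16 cluster held Wnt2 at 102 and 76.3 CPM, Wnt10b at 32.4 and 12.5 CPM, Wnt11 at 100 and 79.4 CPM and Rspo3 at 30.3 and 15.5 CPM in fascia replicates 1 and 2. The Gdf10 and Sfrp2 cluster of the same libraries held Wnt2 at 6.30 and 9.07 CPM, and there Wnt5a (41.2 and 37.1 CPM against 17.8 and 16.7 CPM) and Rspo1 (15.3 and 31.3 CPM against 0.58 and 5.26 CPM) were the higher ones. Pi16 marks fibroblasts of connective tissue planes and vessel sheaths, and Gdf10 codes for a TGF-beta family ligand. Rspo3 was highest, at 70.3 and 18.7 CPM, in a small cluster with Nox4 and Epha3 (287 and 41 cells). Wnt11 was at 69.8 and 47.8 CPM in the Gdf10 cluster of fascia and 53.2 CPM in that cluster's skin replicate 2 cells, and lower, at 23.7 and 37.5 CPM, in the Ccl19 and Igfbp2 cluster of skin. In skin, the Ccl19 and Igfbp2 cluster held Rspo1 at 130 and 227 CPM and Wnt5a at 45.3 and 78.3 CPM, against 47 CPM of Rspo1 and 11.1 CPM of Wnt5a in the Gdf10 cluster of replicate 2. Within the Gdf10 cluster, Wnt5a was thus higher in fascia (41.2 and 37.1 CPM) than in skin (11.1 CPM, replicate 2 alone). This reverses the direction of the whole class. Rspo1 kept its direction there, at 15.3 and 31.3 CPM in fascia against 47 CPM.

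**Figure D4:**
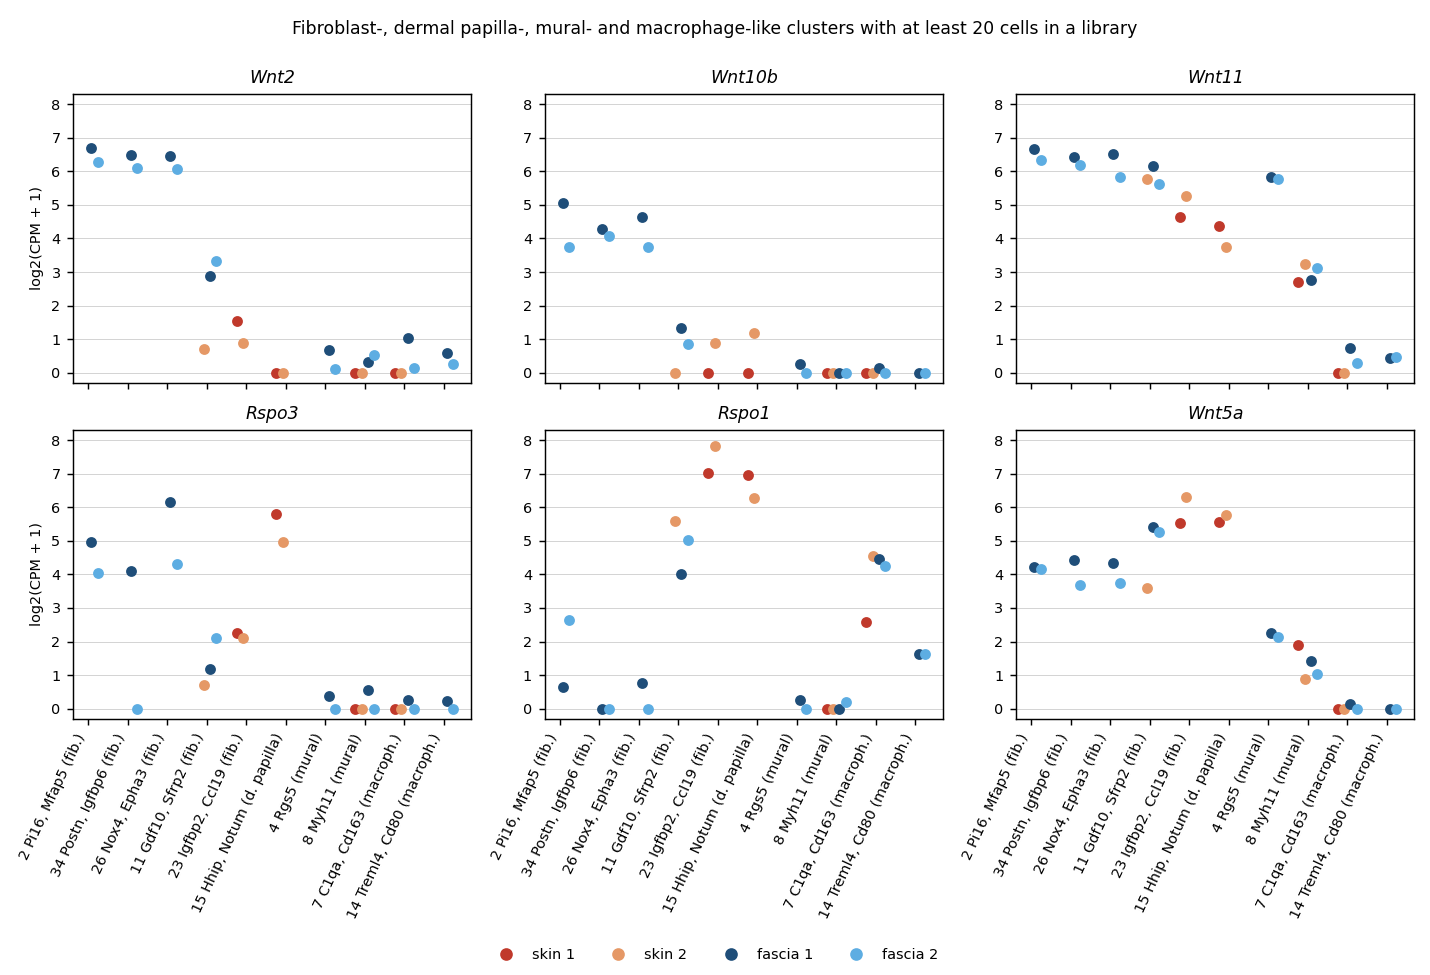
Level of 6 members as log2(CPM + 1) (vertical axis) in fibroblast-, dermal papilla-, mural- and macrophage-like clusters (horizontal axis, cluster number with leading or marker genes), with 1 point per library of at least 20 cells. Wnt2, Wnt10b and Rspo3 are high in fascia clusters 2 and 26 and low in cluster 11, while Rspo1 is high in skin clusters 23 and 15.

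Mural cells, the pericytes and smooth muscle around vessels, were the second source of Wnt11 in fascia. The class held Wnt11 at 6.60 and 8.06 CPM in the skin libraries, against 41.5 and 38.5 CPM in the fascia libraries, which is 1.98 on the log2 scale (SE 0.32, adjusted p = 0.00447 by edgeR). It was the 1 call among 3 tested members, where 16.3% of 12528 genes were called. The Rgs5 cluster held Wnt11 at 55.8 and 53 CPM in fascia (875 and 1244 cells) and had 19 and 10 cells in skin, too few for a level there, and the Myh11 cluster held 5.81 and 7.62 CPM in fascia and 5.50 and 8.42 CPM in skin. Within the Myh11 cluster alone, a fit chosen after the data were seen, the Wnt11 change was -0.65 and not called (adjusted p = 0.436). Rgs5 is a pericyte gene and Myh11 a smooth muscle myosin gene. Wnt4 (-1.65, SE 0.92, adjusted p = 0.256) and Wnt5a (-1.52, SE 0.72, adjusted p = 0.187) were not called in mural-like cells by edgeR.

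In blood endothelial-like cells 2 members could be tested, and 1 was called where 21.1% of 12053 genes were. Wnt4 was at 2.15 and 8.19 CPM in skin (4 and 15 UMIs) and 0.229 and 0.453 CPM in fascia (2 and 6 UMIs), which is -4.20 on the log2 scale (SE 0.84, adjusted p = 0.021 by edgeR). The higher skin value lies below that of lymphocyte-like cells in the same library, and the keratinocyte list was at 1223 and 7737 CPM in skin against 21.9 and 16.1 CPM in fascia. Its part in the result was not tested. Wnt11 was at 0.537 and 0.546 CPM in skin (1 UMI each) and 7.54 and 3.93 CPM in fascia and missed the threshold (log2 change 2.87, SE 0.81, adjusted p = 0.0527 by edgeR). The fascia cells came from clusters led by Esm1 and Gpihbp1 (398 and 511 cells) and by Vwf and Mecom, and the skin cells from a cluster led by Selp and Sele that had 0 fascia cells. Without fascia replicate 1, or without fascia replicate 2, the Wnt4 call was lost (adjusted p = 0.277 and 0.167).

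Macrophages were the main holders of Rspo1 in fascia. Macrophage- or monocyte-like cells gave 54.7% of the fascia's Rspo1 UMIs, at 14.2 and 12.1 CPM, against 3.31 and 13.2 CPM in the fibroblast-like cells, so these classes overlapped. At least 1 UMI was found in 14.2% and 11.4% of them, and in 0 of the 315 and 775 lymphocyte-like cells of the same libraries, which allows a share of cells with a UMI of up to 0.952% and 0.387% there (3 counts of the total). The cluster with C1qa, Cd163 and Fcna, genes of resident macrophages, held Rspo1 at 20.9 and 18 CPM, and the cluster with Treml4 and Cd80 held 2.1 CPM in both libraries. Skin had 44 and 27 such cells with 2 and 3 UMIs of Rspo1 (4.94 and 20.6 CPM), and the tissues were not told apart (log2 change 0.24, SE 0.69, adjusted p = 0.866 by edgeR). Wnt4, the other member tested there, was not called either (-1.05, SE 1.86, adjusted p = 0.775), so 0 of 2 were called (0 at an unadjusted p under 0.05), where 8.38% of 11599 genes were. In lymphocyte-like and dendritic-like cells none of the 9 members had enough UMIs to be tested.

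Over all cells of a library the balance followed both the levels and the mix of cells, and fewer cells of a type and less RNA per cell cannot be told apart in such sums. Of the 9 members, 6 were called, where 38.3% of 17805 genes were (19.4% higher and 18.9% lower). Wnt2 at 7.37 (SE 1.06, adjusted p = 0.00964) and Wnt11 at 2.70 (adjusted p = 0.0178) were higher in fascia by edgeR. Wnt3, Wnt10a, Wnt4 and Rspo1 were lower, with ratios of summed levels, skin over fascia, of 1711 (counting interval 585 to 8298, from 3 fascia UMIs), 508 (283 to 1017), 35.8 (30.3 to 42.6) and 2.17 (1.99 to 2.38). Rspo3, Wnt10b and Wnt5a were not called (log2 change 2.03, 1.29 and -0.87, adjusted p = 0.113, 0.421 and 0.365). Wnt5a changed sign without skin replicate 2 (0.12), and Wnt10b without fascia replicate 1 (-1.15). Without skin replicate 1, or without skin replicate 2, the calls of Wnt2, Wnt11 and Rspo1 were lost (adjusted p from 0.0513 to 0.0868) and those of Wnt3, Wnt4 and Wnt10a stayed. That of Rspo1 was also lost without either fascia library (adjusted p = 0.0802 and 0.0663).

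The other ligand genes with at least 50 UMIs were also spread unevenly over the classes. Rspo2 (150 UMIs) was at 50.6 and 18.2 CPM in dermal papilla-like cells, had 0 UMIs in skin fibroblast-like cells and 3 and 2 UMIs in keratinocyte-like cells. Wnt16 was at 130 and 92.5 CPM in the papilla-like cells and 14.7 and 44.3 CPM in keratinocyte-like cells, Wnt5b at 54.5 and 101 CPM and 28.8 and 40.5 CPM, and Wnt6 at 40.9 and 29.3 CPM and 6.9 and 25.4 CPM. Wnt7b was a keratinocyte gene, at 8.8 and 15.8 CPM. Wnt9a was at 52.3 and 34.2 CPM in skin lymphocyte-like cells and 0.7 and 0.2 CPM in fascia ones, and fibroblast-like cells held 3.48 and 5.30 CPM (skin) and 4.41 and 3.10 CPM (fascia). Of the 54 UMIs of Wnt1, 51 came from fibroblast-like cells of fascia replicate 1 and 1 from those of fascia replicate 2. Wnt2b and Wnt3a had 75 and 202 UMIs in all, and Wnt7a, Wnt8a, Wnt8b, Wnt9b and Rspo4 had fewer than 50.

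In fibroblast-like cells, no gene of ligand release was called and a few receptor genes were lower in fascia. Wls, the carrier of Wnt proteins, was found in fibroblast-like cells at 119 and 184 CPM (skin) and 231 and 199 CPM (fascia), and at 147 and 164 CPM in keratinocyte-like cells. None of the 9 tested lipid attachment and secretion genes was called in fibroblast-like cells, where 10.1% of all genes tested were. Lgr4, an R-spondin receptor, was at 7.88 and 27.9 CPM in fibroblast-like cells of skin, against 47.9 and 47.1 CPM in those of fascia, and none of the 3 tested R-spondin receptor and ligase genes was called. Lgr5 and Lgr6 lay in skin, Lgr6 at 38.2 and 53.6 CPM in keratinocyte-like and 54.5 and 65.3 CPM in papilla-like cells and at 0.2 and 0.3 CPM in fascia fibroblast-like cells. Of the 13 tested receptors, 2 were lower in fascia fibroblast-like cells, where 7.02% of all genes tested were lower. These 2 include Ptk7, a receptor of cell polarity signalling, at 33.8 and 24.4 against 0.751 and 0.516 CPM (log2 change -5.84, SE 0.42, adjusted p = 0.0149 by edgeR). The other was Fzd8 (-1.73), a Frizzled receptor named here after its value was seen. Over all cells, 8 of 15 tested receptors were lower in fascia and 1 higher, and 4 of 5 R-spondin receptor and ligase genes were lower. Of all genes tested over all cells, 18.9% were lower and 19.4% higher, and such sums also follow the mix of cells.

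Among 18 listed targets of beta-catenin, 15 were tested in fibroblast-like cells and 11 were lower in fascia, none higher, where 7.02% of all genes tested were lower and 3.07% higher. The median log2 change of the 15 was -1.76, and that of all 12408 genes was 0.04. The keratinocyte list moved the same way in this class, from 451 and 1885 CPM summed in skin to 11.8 and 18.4 CPM in fascia, and its part in the list's count was not tested. Apcdd1, a membrane inhibitor of Wnt signals, was at 467 and 301 CPM (skin) and 122 and 141 CPM (fascia) (log2 change -1.96, SE 0.39, adjusted p = 0.0477 by edgeR). Nkd1, a feedback inhibitor, was at 22.3 and 26.2 CPM against 7.25 and 8 CPM (-2.04, SE 0.20, adjusted p = 0.0192). Tnfrsf19, a receptor of the TNF family, was at 62.4 and 21.2 CPM against 0.915 and 0.602 CPM (-6.15, SE 0.79, adjusted p = 0.0242). Several called members of the list are inhibitors of the pathway as well as targets, Apcdd1, Nkd1, Nkd2 and Axin2 among them. Of 6 tested secreted antagonists 2 were lower, Dkk3 (-1.46, SE 0.29, adjusted p = 0.0464) and Sostdc1, which had 0 UMIs in fascia. Of the 17 signal transduction genes 1 was lower, Lef1 (8.58 and 3.89 against 0.211 and 0.43 CPM), which keratinocyte-like cells held at 40.5 and 109 CPM. Lef1 is also among the 11 lower genes of the target list, so this is the same call and not a further one. Of the 3 tested Wnt genes outside the 9 members, Wnt5b (-3.60, SE 0.52, adjusted p = 0.0288) and Wnt16 were lower. Their skin levels in fibroblast-like cells were 11.4 and 18 CPM of Wnt5b and 5.10 and 4.24 CPM of Wnt16. Lymphocyte-like cells held 9.5 and 15.7 CPM and 0 and 15.7 CPM, so in replicate 2 Wnt16 lay below that reference. The part of free RNA in these levels was not tested. Wnt16, Sostdc1, Fzd8 and Lef1 are named because their counts are small, after their values were seen. As with the ligands, no gene was called in this class without fascia replicate 1 or without fascia replicate 2.

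**Figure D5:**
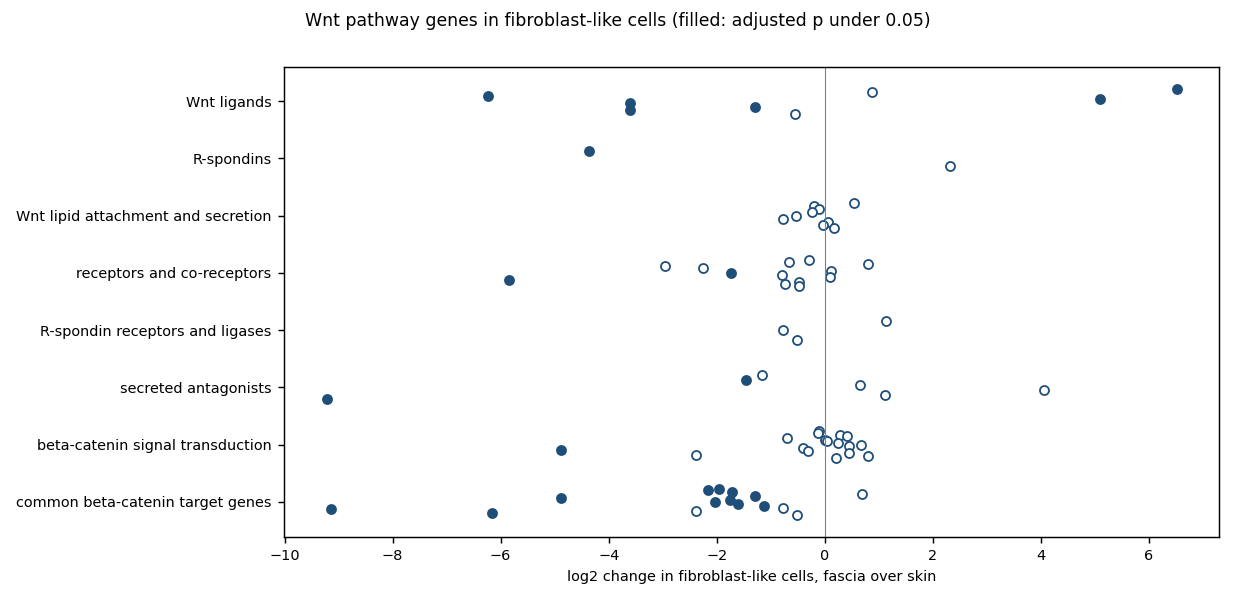
Log2 change in fibroblast-like cells, fascia over skin (horizontal axis), for each tested gene of the 8 Wnt pathway lists (vertical axis, 1 point per gene, filled where the adjusted p was under 0.05 by edgeR). The target list lies mostly left of 0, with 11 of 15 genes filled, and the secretion list has no filled point.

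The genes whose pattern over 36 profiles (14 classes by library) was most like each member's differed from member to member. Wnt2 was nearest to Gpr1 (Pearson's r = 0.97), Wnt3 to Tmem102 (0.97), Wnt4 to Crym (0.90) and Wnt5a to Tmem45al (0.89). Wnt10a was nearest to Ocm (0.93), Wnt11 to Cys1 (0.93), Rspo1 to Vcan (0.84), the versican gene of the papilla matrix, and Rspo3 to Tmem132e (0.93). Wnt10b was nearest to Gstm3l (0.82), which was also among the nearest to Wnt2 (0.96). The profiles share libraries, depth and any free RNA, so these values are descriptions of log2(CPM + 1) levels. Gpr1 (132 UMIs in all) is sparse, and its place rests on few molecules.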

How the data were processed

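The authors deposited a table of UMI counts for each library. STAR, Cell Ranger 6.0.1 and the builds mRatBN7.2 and GRCh38.p13 are named per the submitters' processing notes, whereas Cell Ranger 7.0.0 stands in the headers of the matrices. Whether intron reads were counted is not given in the sources used here. The members and gene lists were chosen with earlier results of these data known.

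Cells needed 500 genes or more and no more than 20% mitochondrial UMIs. Scrublet (Scanpy 1.11.5) marked 0% and 0.006% of skin replicates 1 and 2, where the highest scores were removed instead (445 and 2163 cells), and 210 and 188 cells of fascia. Leiden clustering (leidenalg 0.10.2, 2000 variable genes without the members, 30 components, 15 neighbours, resolution 1.0) was unintegrated. A cluster took the class with the highest mean log2 ratio of its markers to the median cluster (pseudocount 10 CPM, at least 1.0, at least 3 markers detected), and stayed unnamed where another lineage scored close to it. These scoring rules were set after the data were seen. Source classes needed 50 cells in both libraries, also set afterwards.

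UMIs were summed per class and library (20 cells or more in each) and compared with edgeR 4.0.16 in R 4.3.3 (TMM, filterByExpr, quasi-likelihood test, Benjamini-Hochberg, threshold 0.05), which was tested on simulated data. Log2 changes carry TMM scaling and so differ from ratios of CPM. The SE was derived from the test statistic. Intervals and zero limits (3 counts) cover counting error alone, at 95% for intervals. Alternatives were DESeq2 1.42.0, relative log expression, no filter, replicate block, each library left out, 200 genes, doublets kept, Leiden resolution 0.5 and 2.0, cells classed by their own markers, members among the variable genes and thinning to 2000 UMIs. Genes were named by a rule: the members, other ligands with 50 UMIs or more, up to 3 called genes per pathway list and direction at 10 CPM or more, and the genes most like each member. Promoters came from RefSeq (GRCr8) for 8 of the 9 members. Wnt10b had no entry.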

Additional observations from a re-analysis of the deposited data

How the results depend on the processing

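In fibroblast-like cells, 5 of 7 tested members and 1252 of 12408 genes were called. The member count was 8 of 9 tested with no low-count filter. It was 0 of 7 with at least 200 genes per cell (6 at an unadjusted p under 0.05) and with mixed clusters named (6). Leaving out 1 library gave 0 to 4 members and 0 to 2616 genes. The gene count was 2250 with DESeq2, 3113 with no low-count filter, 2370 with cells classed by their own markers, 257 with at least 200 genes, 0 with mixed clusters named (3583 at an unadjusted p under 0.05) and 2926 with dermal papilla-like cells added. The replicate number as a block gave 716 genes; Wnt4 (adjusted p = 0.0572) and Wnt5a (0.0672) lost their calls and Rspo3 gained one (0.0357). Deviations of same-numbered libraries correlated at -0.12 over all cells and 0.01 in fibroblast-like cells. With 2 libraries per tissue these values cannot decide whether same-numbered libraries share an animal, and the labels do not say.

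In mural-like cells, 1 of 3 tested members and 2046 of 12528 genes were called. Mixed clusters named gave 4 of 4 tested members and 2859 of 13209 genes. That setting took the mural-like cells of skin replicate 2 from 249 to 1386. The cluster shared by all 4 libraries gave 0 of 1 tested member (0 at an unadjusted p under 0.05) and 1458 of 10607 genes. No low-count filter gave 1 of 8 tested members and 3106 of 19437 genes. Leaving out 1 library gave 943 to 2737 genes. In blood endothelial-like cells, 1 of 2 tested members and 2541 of 12053 genes were called, against 4 of 8 members and 4464 of 18849 genes with no low-count filter. Leiden resolution 2.0 gave 2 of 2 tested members and 2707 of 12016 genes. Doublets kept gave 2 of 4 tested members and 3211 of 12653 genes. With cells classed by their own markers, 0 members had enough UMIs to be tested, so that setting cannot decide whether the Wnt4 call holds. With 1 library left out, 0 to 3 members and 618 to 2289 genes were called. Over all cells, 3 to 6 members and 2945 to 4526 genes were called with 1 library left out. Lymphocyte-like cells gave 2 members with no low-count filter and 0 to 1 with 1 library left out, where the fits giving 0 had 0 members tested.

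The sign turned over all cells for Wnt5a (0.12 without skin replicate 2; range -1.74 to 0.12 with 1 library left out) and Wnt10b (-1.15 without fascia replicate 1; to 2.54), in macrophage-like cells without skin replicate 1 for Wnt4 (6.43; range -1.55 to 6.43) and Rspo1 (-0.75; to 1.09), and for Wnt11 (-0.65) in the shared mural cluster. The cause was not tested. The other 286 values of single members kept their sign. The class with the highest mean level of a member was the same in 15 to 18 of 18 pairs of member and tissue under other clusterings, and in 14 of 18 by share of cells after thinning. The 18 pairs include skin Wnt2 and fascia Wnt3 and Wnt10a, given above as too few to name a source. After thinning, fascia Wnt3 was at 0% in its first and next class. Under the settings with 15 of 18, the changed pairs were the papilla-like sources, where that class came neither first nor next. So these counts cannot decide how stable the sources are. Limits: 2 libraries per tissue, the shallow and partly unnamed skin replicate 2, keratinocyte RNA in other classes of skin, and clusters that hardly overlap between tissues.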
